A study of Mus musculus with 12 samples.

Results

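Myosin light chains and their kinases were followed through 12 bulk RNA libraries of mouse heart cells. The set holds 10 of the 23423 genes in the deposited table, chosen by name: 3 essential light chains (Myl3, Myl4 and Myl6), 5 regulatory light chains (Myl2, Myl7, Myl9, Myl12a and Myl12b) and 2 kinases (Mylk and Mylk3). All 10 had a row in the table and all 10 passed the filter on low values, so each was tested in every comparison.

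The libraries form 6 groups of 2, all from CD1 mice, and no genotype other than the strain is given in the labels. Fresh fibroblasts were Thy1+ cells taken from hearts at postnatal day 1.5 by magnetic sorting, and fresh cardiomyocytes came from hearts of the same age through a commercial isolation system. The other 4 groups were such fibroblasts, plated on gelatin in serum medium, transduced on the following day and collected 3 days later. They received a control retrovirus (named lacZ in the titles and empty vector in the other labels, here called control vector), a retrovirus named MGT for the reprogramming factors it encodes (Mef2c, Gata4, Tbx5), the MGT virus plus a lentivirus for a non-targeting hairpin (MGT + shNT), or the MGT virus plus a lentivirus for a hairpin against Ptbp1 (MGT + shPtbp1). Wells without a hairpin received 50 µl of virus, and hairpin wells received 50 µl of each of 2 viruses. MGT drives part of a fibroblast culture towards a cardiomyocyte-like state, and Ptbp1 encodes a splicing repressor. In replicate 2 of MGT + shPtbp1 the source label reads Ptbp2 instead, and the title and transduction label were used to group it. The labels do not say whether the 2 libraries of a group came from separate animals or cultures, so the p-values measure the spread between these libraries, which may be technical.

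Each myosin head carries 1 essential and 1 regulatory light chain on the lever arm of the heavy chain. In the heart, MYL2 and MYL3 are the ventricular regulatory and essential chains and MYL7 and MYL4 are the atrial pair, while MYL4 is also made in the embryonic ventricle. MYL6, MYL9, MYL12A and MYL12B serve smooth muscle and non-muscle myosin. Phosphorylation of a serine near the start of a regulatory chain by a dedicated kinase promotes contraction: MYLK is the kinase of smooth muscle and non-muscle cells, and MYLK3 is the cardiac kinase.

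Depth ran from 49320858 to 94005212 assigned reads per library, so 1 read was worth 0.0106 to 0.0203 CPM (counts scaled to a fixed library total). Levels below are the deposited CPM divided by a per-library scaling factor of 0.968 to 1.06. Ptbp1, the hairpin's target, stood at 359 and 364 scaled CPM in MGT + shNT and at 81.0 and 78.4 in MGT + shPtbp1, and both libraries of the latter group were low. The summed level of 7 cardiomyocyte markers was 932 to 974 in fresh fibroblasts and 9169 to 9358 in fresh cardiomyocytes. The cardiomyocyte preparation also held 7 fibroblast markers at a sum of 17783 to 17907 and 5 endothelial markers at 3261 to 3278, against 33080 to 33976 and 2596 to 2640 in the sorted fibroblasts. Neither fresh preparation was therefore free of the other's markers. In bulk RNA, a different number of cells of a type and a different amount of RNA per cell cannot be told apart.

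The stretch that the kinases act on is shown because it ties the 5 regulatory chains to the 2 kinases. Each line gives 57 coding bases on the gene's own strand, read from GENCODE transcripts of the GRCm38 (mm10) assembly, with the codon of the serine that precedes an asparagine-valine-phenylalanine run in capitals. All 5 windows lie in exon 2.
Myl2, chr5:122101764-122101820, plus strand: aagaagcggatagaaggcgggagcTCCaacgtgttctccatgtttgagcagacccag
Myl7, chr11:5898444-5898500, minus strand: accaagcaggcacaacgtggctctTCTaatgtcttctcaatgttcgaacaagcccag
Myl9, chr2:156778578-156778634, plus strand: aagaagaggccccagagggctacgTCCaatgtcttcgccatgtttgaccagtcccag
Myl12a, chr17:70996791-70996847, minus strand: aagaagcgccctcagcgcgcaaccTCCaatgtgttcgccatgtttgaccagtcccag
Myl12b, chr17:70977142-70977198, minus strand: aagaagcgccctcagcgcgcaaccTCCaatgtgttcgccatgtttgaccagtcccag
The capital codon is number 15 from the start codon in Myl2, 23 in Myl7 and 20 in the other 3. The codon before it also encodes serine in Myl2 and Myl7, and threonine in Myl9, Myl12a and Myl12b. The windows of Myl12a and Myl12b are identical.

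Likeness between members bears on how reads can be assigned. Over whole coding sequences Myl12a and Myl12b were 96.5% identical, Myl9 was 85.7% identical to Myl12a and 86.4% to Myl12b, and the ventricular and atrial essential chains Myl3 and Myl4 were 78.1% identical. Of all 50-base windows in the annotated exons, 21.1% of Myl12a's and 8.76% of Myl12b's were found in another gene, most of them under each other's name. The annotation holds 2 genes named Myl12b, and 1 of them overlaps Myl12a on the same strand. Of Myl12a's 718 shared windows, 551 were found under the name Myl12b and 159 in Myom1, which overlaps Myl12a on the other strand. Of Myl12b's 238, 192 were found in Myl12a. The share of Myl12a therefore counts overlap at its own locus as well as likeness. For Myl6 the share was 8.38%, mostly in pseudogenes, for Mylk it was 4.56%, and for Myl7, Myl9 and Mylk3 it was 0. The counting of reads that match several places is not given in these sources, so the levels of Myl12a, Myl12b and Myl6 are less certain than those of the cardiac chains. The Mylk row pools the long and short kinases with telokin, a kinase-free product of the same gene.

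In fresh cells, the ventricular pair had the largest fitted differences of the 10 members between cardiomyocytes and fibroblasts. Myl2 (chr5:122100951-122113472) was at 241 and 249 scaled CPM in fresh fibroblasts and at 3383 and 3181 in fresh cardiomyocytes. Myl3 (chr9:110741861-110769798) was at 73.2 and 72.1 in fibroblasts and at 1092 and 1065 in cardiomyocytes. Both cardiomyocyte libraries stood far above both fibroblast libraries for either gene. The fitted difference was 13.4-fold for Myl2 (log2 fold change 3.74, SE 0.0773, adjusted p = 2.45e-18) and 14.8-fold for Myl3 (log2 3.88, SE 0.0912, adjusted p = 1.38e-17). Fitted values come from limma on log2(scaled CPM + 0.5), a scale that understates the change of low genes, and p-values were adjusted by Benjamini-Hochberg over 13977 genes.

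The atrial pair was also higher in cardiomyocytes. Myl7 (chr11:5896637-5898782) was at 17.1 and 16.9 scaled CPM in fresh fibroblasts and at 219.7 and 206 in cardiomyocytes, a 12.2-fold difference (log2 3.61, SE 0.0473, adjusted p = 6.38e-21). Myl4 (chr11:104550663-104595753) was at 27.1 and 27.6 in fibroblasts and at 194 and 185 in cardiomyocytes, a 6.81-fold difference (log2 2.77, SE 0.0437, adjusted p = 6.55e-20). Again the libraries of the 2 preparations did not overlap. Of the 6 atrial markers 3 were higher and 2 lower in cardiomyocytes. Nppa, the one with the largest fitted difference, which encodes atrial natriuretic peptide, was at 21.3 and 20.3 in fibroblasts and at 227 and 211 in cardiomyocytes.

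Fibroblast levels of the cardiac members were compared with those of other cardiomyocyte genes in the same libraries. Myl2 in fresh fibroblasts was 7.46% of its cardiomyocyte level, Myl3 6.74%, Myl7 7.98%, Mylk3 13.2% and Myl4 14.4%. The 7 cardiomyocyte markers lay between 8.99% and 11.5%, with a median of 10.2%. Myl2, Myl3 and Myl7 thus fell just below that range, and Mylk3 and Myl4 above it. The part of cardiomyocyte RNA in the sorted fibroblasts was not tested.

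The chains of smooth and non-muscle myosin differed little between the fresh preparations. Myl9, the smooth muscle regulatory chain, was at 173 and 175 scaled CPM in fibroblasts and at 223 and 215 in cardiomyocytes (log2 0.33, SE 0.0420, adjusted p = 9.17e-07). Myl6, the essential chain of the same myosins, was at 443 and 431 against 532 and 506 (log2 0.25, SE 0.0429, adjusted p = 3.77e-05). These differences are 1.26-fold and 1.19-fold. Myl12a was at 431 and 432 in fibroblasts and at 472 and 498 in cardiomyocytes (log2 0.17, SE 0.0548, adjusted p = 0.00951), and the call was lost without cardiomyocyte replicate 2 (log2 0.13, adjusted p = 0.114) or without fibroblast replicate 1 (adjusted p = 0.0545), with quantile normalization (log2 0.06, adjusted p = 0.246) and with no filter (adjusted p = 0.053). Myl12b, at 220.4 and 223 against 219 and 215, was not called (adjusted p = 0.497).

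The kinases went opposite ways between fresh cells. Mylk3 (chr8:85324303-85386345) was at 10.9 and 11.2 scaled CPM in fibroblasts and at 85.9 and 81.8 in cardiomyocytes, 7.30-fold higher in the latter (log2 2.87, SE 0.100, adjusted p = 5.6e-15). Mylk (chr16:34745210-35002420) was at 146 and 153 in fibroblasts and at 47.6 and 47.8 in cardiomyocytes, 3.11-fold lower in the latter (log2 -1.64, SE 0.0455, adjusted p = 1.67e-16). In all, 8 of the 10 members were higher and 1 was lower in cardiomyocytes, against 35.2% and 41.7% of all genes tested, or 76.9% in either direction. The members' median log2 fold change was 1.55, beside -0.05 over all genes tested.

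**Figure D1:**
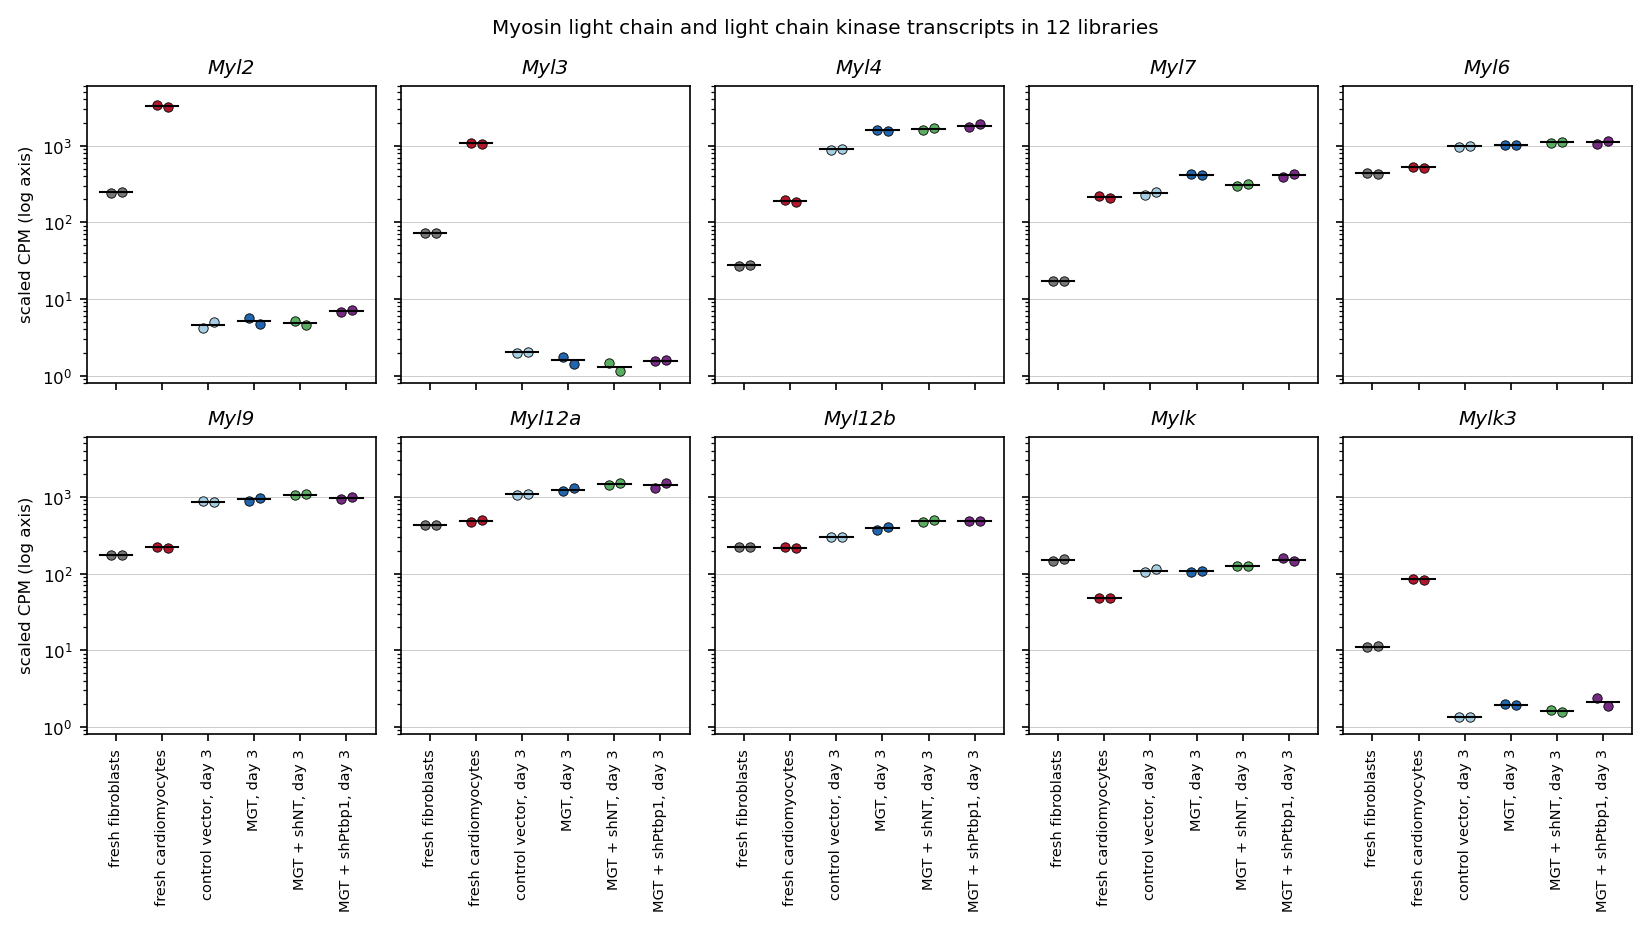
Scaled CPM on a log axis for the 10 members in the 6 groups; each point is 1 library and each bar the mean of 2. Myl2, Myl3 and Mylk3 are highest in fresh cardiomyocytes and lowest in the 4 cultured groups, whereas Myl4, Myl6, Myl9 and Myl12a stand higher in every cultured library than in any fresh one.

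Ventricular and atrial chains went opposite ways in culture with the control vector. Myl2 was at 241 and 249 scaled CPM in fresh fibroblasts and at 4.18 and 4.98 in control cultures, 48.4-fold lower in the fit (log2 -5.60, SE 0.0773, adjusted p = 9.03e-22). Myl3 went from 73.2 and 72.1 to 1.99 and 2.03, 29.2-fold lower (log2 -4.87, SE 0.0912, adjusted p = 8.48e-20). Mylk3 went the same way, from 10.9 and 11.2 to 1.35 and 1.33, 6.27-fold lower (log2 -2.65, SE 0.100, adjusted p = 4.38e-15). No control library came near a fresh fibroblast library for any of these genes.

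The atrial pair rose instead. Myl4 was at 27.1 and 27.6 scaled CPM in fresh fibroblasts and at 879 and 907 in control cultures, 32.0-fold higher (log2 5.0, SE 0.0437, adjusted p = 9.59e-25). Myl7 was at 17.1 and 16.9 and then at 230.1 and 245, 13.6-fold higher (log2 3.77, SE 0.0473, adjusted p = 2.32e-22). The control cultures, which received no MGT by their labels, thus held Myl4 above the 194 and 185 of fresh cardiomyocytes, and the difference between those groups was 2.23 on the log2 scale (adjusted p = 1.45e-19). Myl7 in the control cultures was also above fresh cardiomyocytes, by 0.16 on the log2 scale (adjusted p = 0.00479).

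Other genes moved with this split, and their part in it was not tested. Of the 6 atrial markers, 5 were lower and 1, Sln, was higher in control cultures than in fresh fibroblasts. Their sum was 129 to 130.3 before and 39.7 in either control library. Its largest parts in fresh fibroblasts were Kcna5 (42.3 and 40.9) and Nr2f2 (46.2 and 47.2), both lower in fresh cardiomyocytes (23.9 and 23.6, and 29.8 and 30.3). Sln went from 1.36 and 1.24 to 4.14 and 3.63, and was at 18.2 and 17.8 in fresh cardiomyocytes. All 4 ventricular markers were lower in control cultures, with a sum of 48.9 to 50.8 before and 4.40 to 4.76 after. In fresh fibroblasts the largest parts of this sum were Hey2 (18.7 and 21.1) and Mpped2 (22.5 and 22.2). Fresh cardiomyocytes held Hey2 at 23.4 and 24.1 and Mpped2 at 17.0 and 15.8, so neither sets the fresh preparations far apart. Irx4 and Kcne1, which do, were at 2.93 and 2.68 and at 4.79 and 4.74 in fresh fibroblasts. Among the 7 cardiomyocyte markers, 5 were lower and 2 higher; Tnnt2, which encodes cardiac troponin T, was at 181 and 189 in fresh fibroblasts and at 2419 and 2184 in control cultures, while Pln, which encodes phospholamban, went from 71.2 and 77.9 to 1.57 and 1.41. Tbx5, 1 of the 3 delivered factors, was at 6.93 and 7.51 in fresh fibroblasts and already at 644 and 677 in control cultures. Mef2c went from 139 and 138 to 313 and 330.1, and Gata4 from 219 and 218 to 340.2 and 374. Reads from a vector and from the cells' own copy of these 3 genes cannot be told apart in a table of genes.

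The ratio of atrial to ventricular partner was then taken within each library. It is not corrected for length and is read only between groups, where the length of each gene is the same. The ratio of mean Myl7 to mean Myl2 was 0.0694 in fresh fibroblasts and 0.0649 in fresh cardiomyocytes, and it was 51.8 in control cultures. For Myl4 to Myl3 it was 0.377 and 0.176 in these fresh preparations and 444 in control cultures. On the log2 scale, with 0.5 added to each level, the Myl7 to Myl2 ratio was -3.81 ± 0.0390 (SD, n = 2) in fresh fibroblasts, -3.94 ± 0.00126 in fresh cardiomyocytes and 5.55 ± 0.0974 in control cultures. No cultured library came near a fresh one for either pair. With MGT the ratios of means were 80.3 for Myl7 to Myl2 and 999 for Myl4 to Myl3, with MGT + shNT 63.3 and 1272, and with MGT + shPtbp1 58.6 and 1171. Differences between groups in these ratios were not tested.

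**Figure D2:**
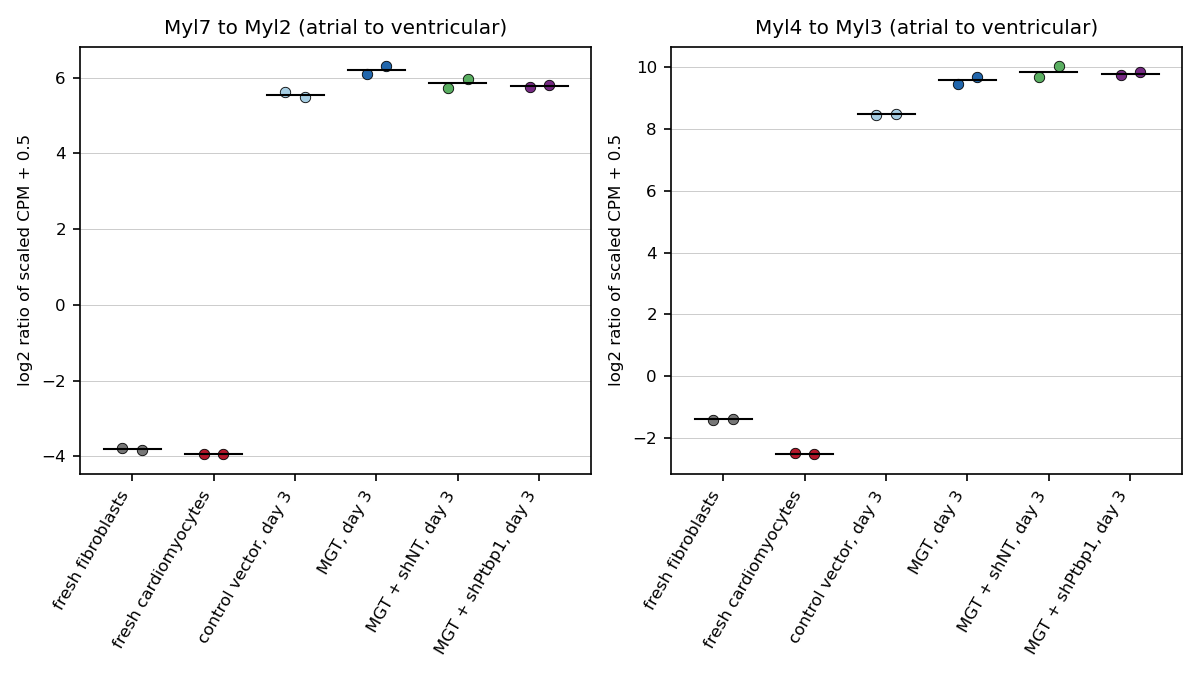
Log2 ratio of Myl7 to Myl2 (left) and of Myl4 to Myl3 (right), from scaled CPM + 0.5, in each library (points) with the mean of each group of 2 (bars). Fresh libraries lie between -3.94 and -1.37 and cultured libraries between 5.48 and 10.0.

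Smooth and non-muscle chains were also higher in culture. Myl9 (chr2:156775420-156781658) was at 173 and 175 scaled CPM in fresh fibroblasts and at 872 and 859.9 in control cultures, 4.96-fold higher (log2 2.31, SE 0.0420, adjusted p = 5.33e-20). Myl12a (chr17:70993656-71002878) went from 431 and 432 to 1057 and 1105, 2.50-fold higher (log2 1.32, SE 0.0548, adjusted p = 1.88e-14). Myl6 (chr10:128490860-128494145) went from 443 and 431 to 968 and 984, 2.23-fold higher (log2 1.16, SE 0.0429, adjusted p = 3.17e-15). The neighbour of Myl12a, Myl12b (chr17:70973133-70990890), moved less, from 220.4 and 223 to 304 and 303, a 1.37-fold difference (log2 0.45, SE 0.0412, adjusted p = 4.26e-09). The ratio of Myl12a to Myl12b was accordingly 1.95 in fresh fibroblasts and 3.56 in control cultures. The 2 genes share sequence, as given above, so this ratio carries the uncertainty of read assignment.

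Smooth muscle markers moved alongside these chains. The sum of 7 such markers was 1196 to 1221 in fresh fibroblasts and 7718 to 7939 in control cultures, with 5 markers higher and 2 lower. Acta2, smooth muscle actin, went from 491 and 504 to 5372 and 5609. Myh11, the smooth muscle heavy chain and a defining marker of mature smooth muscle, went the other way, from 158 and 165 to 32.5 and 31.3. Markers of other cell types changed as well: the sum of 5 endothelial markers was 2596 to 2640 before and 88.1 to 92.0 after. The sum of 4 macrophage markers was 497 to 499 before and 2638 to 2851 after, with 3 markers higher and 1 lower. Most of the later sum was Lyz2, which went from 164 and 159 to 2239 and 2040, while Csf1r fell from 264 and 267 to 192 and 206. The part of all these markers in the levels of the light chains was not tested.

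Mylk went against its substrates in culture. It was at 146 and 153 scaled CPM in fresh fibroblasts and at 105 and 114 in control cultures, 1.36-fold lower (log2 -0.45, SE 0.0455, adjusted p = 2.15e-08). Over the comparison, 6 members were higher and 4 lower in control cultures than in fresh fibroblasts. Of all genes tested, 43.5% were called higher and 43.4% lower, 86.9% in all, so a call as such was common. The members' median log2 fold change was 0.81, and the median over all genes was 0.0038.

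A CArG box is the site of serum response factor (SRF), which drives many smooth muscle and sarcomere genes. RefSeq promoter windows of the members (build GRCm38.p6), each the 250 bases before a start, were searched for CArG boxes on both strands, and in these windows 4 members held 1: Myl3, Myl7, Myl6 and Myl9. The windows do not cover every annotated start, and both Myl2 windows lie before the first base of its GENCODE gene and match none of its GENCODE transcripts. For the Mylk3 window with its start at base 85381041, the bases just after the start were likewise found in no GENCODE transcript of the gene. The same was so for Myl7, although its start, at base 5898782, is the first base of its GENCODE gene on the minus strand. Of 32851 RefSeq windows of that length, 1.47% held a match. Sites for MEF2, T-box and GATA factors and TATA boxes were also searched, and 2.92%, 3.33%, 26.5% and 12.4% of these windows held them. No member window held a MEF2 or T-box match. GATA matches lay in windows of Myl2, Myl7, Myl6 and Mylk3, and a TATA match in a window of Myl2. Each CArG box is shown in capitals within 50 bases on the gene's strand, because the 4 genes differ in how they moved in culture.
Myl3, chr9:110763573-110763622, plus strand: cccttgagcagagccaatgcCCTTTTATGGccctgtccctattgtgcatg
Myl7, chr11:5898814-5898863, minus strand: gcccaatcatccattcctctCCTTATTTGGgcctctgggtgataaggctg
Myl6, chr10:128493030-128493079, minus strand: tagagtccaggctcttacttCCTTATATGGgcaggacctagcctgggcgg
Myl9, chr2:156775283-156775332, plus strand: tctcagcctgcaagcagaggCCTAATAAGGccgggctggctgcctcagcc
The boxes begin 85, 61, 50 and 161 bases before the start in Myl3, Myl7, Myl6 and Myl9. Myl7, Myl6 and Myl9 were higher in control cultures than in fresh fibroblasts, and Myl3 was lower. A match is a string of letters and no evidence of binding.

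Levels can be set against each other within a light chain class only per length. Shares were taken from scaled CPM per kilobase of annotated exon, and orders are given where 3 measures of length (all exons, longest transcript, principal transcript) agree. Among essential chains Myl3 came first in fresh cardiomyocytes, with 53.8% to 80.8% of the class over the 3 measures, and Myl6 came first in fresh fibroblasts (66.3% to 85.9%) and in control cultures (53.9% to 61.3%). Myl4 made up 3.31% to 3.98% of the class in fresh fibroblasts and 38.5% to 45.8% in control cultures, and it came first in MGT (51.4% to 58.8%), MGT + shNT (50.5% to 58.0%) and MGT + shPtbp1 (53.1% to 60.4%). Among regulatory chains Myl2 came first in fresh cardiomyocytes (68.5% to 84.5%) and Myl9 in all 4 cultured groups, with 40.9% to 47.1% in control cultures and 34.9% to 39.6% in MGT. Which regulatory chain came first in fresh fibroblasts depended on the measure: Myl9 by all exons, and Myl2 by the other 2. In every cultured group Myl2 and Myl3 each made up less of their class than any other member.

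**Figure D3:**
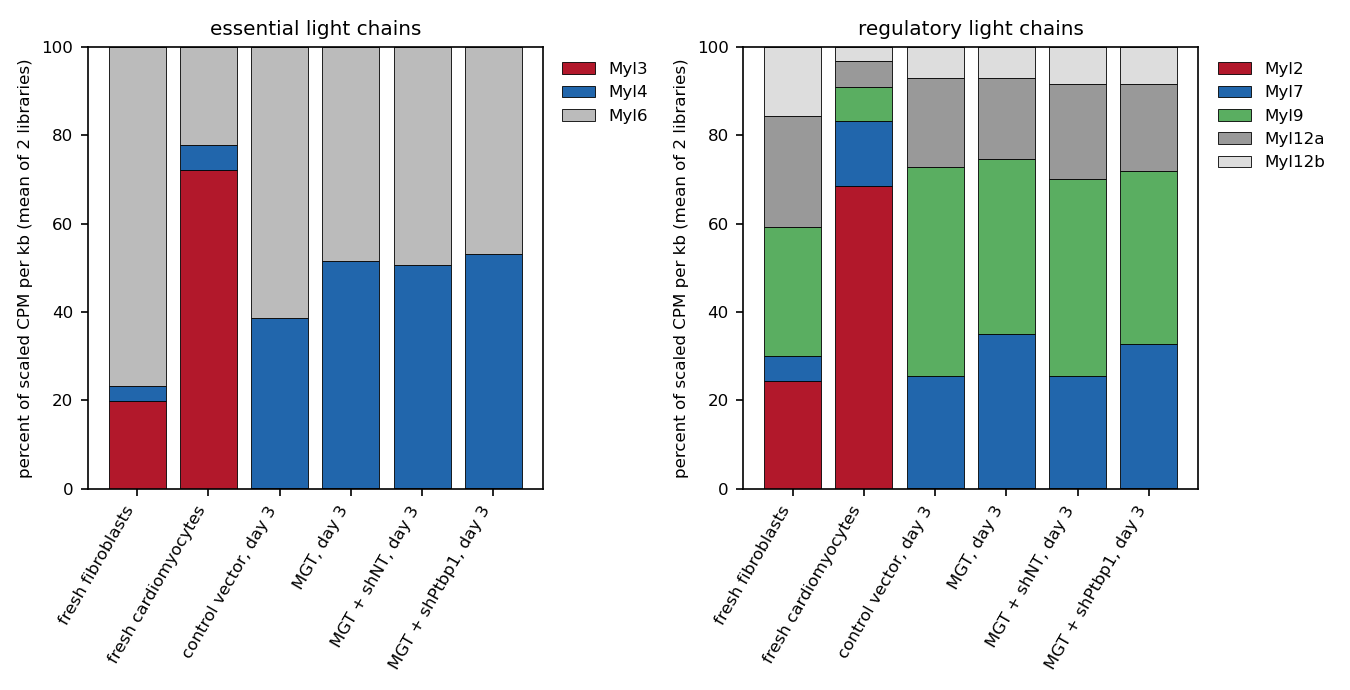
Share of each light chain in the scaled CPM per kilobase of its class, by all annotated exons, as the mean of 2 libraries per group. Ventricular chains (red) fill most of the bar in fresh cardiomyocytes only, and atrial chains (blue) take 38.5% of the essential and 25.5% of the regulatory class in control cultures.

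The atrial pair was higher with MGT than with the control vector. Myl4 was at 879 and 907 scaled CPM with the control vector and at 1592 and 1569.6 with MGT, 1.77-fold higher (log2 0.82, SE 0.0437, adjusted p = 5.38e-11). Myl7 was at 230.1 and 245 and then at 425 and 409.7, 1.76-fold higher (log2 0.81, SE 0.0473, adjusted p = 2.24e-10). Both MGT libraries exceeded both control libraries for each gene. The delivered factors differed in the same comparison: Tbx5 was at 1768 and 1844 with MGT, Mef2c at 719 and 759.9 and Gata4 at 682 and 699.9.

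The ventricular chains did not rise with them. Myl2 was at 4.18 and 4.98 with the control vector and at 5.69 and 4.71 with MGT, so the groups overlapped and no call was made (log2 0.16, SE 0.0773, adjusted p = 0.106). It was called higher without control replicate 2 (log2 0.28, adjusted p = 0.0140) or without MGT replicate 2 (log2 0.29, adjusted p = 0.0162). Myl3 was at 1.99 and 2.03 and then at 1.75 and 1.41, lower by the fit (log2 -0.27, SE 0.0912, adjusted p = 0.0253). That call was lost without control replicate 1, without control replicate 2 or without MGT replicate 2, where the adjusted p was 0.0558, 0.0848 and 0.293, and with a pseudocount of 2 (0.0565), no filter (0.0792) or only the 4 libraries compared (0.114). Of the 7 cardiomyocyte markers 6 were higher with MGT, and of the 4 ventricular markers 1. Fibroblast markers gave 1 higher and 5 lower of 7 (summed level 17971 to 20136 with the control vector and 14564 to 14817 with MGT), smooth muscle markers 1 higher and 4 lower of 7, and endothelial markers 3 lower of 5. The part of these cell types was not tested.

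Among the other members, Myl12b was at 304 and 303 with the control vector and at 374 and 409 with MGT (log2 0.37, SE 0.0412, adjusted p = 1.36e-06). Myl12a was at 1057 and 1105 and then at 1198 and 1289 (log2 0.20, SE 0.0548, adjusted p = 0.00744), and the call was lost without MGT replicate 2 (log2 0.15, adjusted p = 0.123) or with no filter (0.0603). Mylk3 was at 1.35 and 1.33 and then at 1.97 and 1.95 (log2 0.41, SE 0.100, adjusted p = 0.00309), with both MGT libraries above both controls. Myl9 (adjusted p = 0.0567), Myl6 (adjusted p = 0.217) and Mylk (adjusted p = 0.574) were not called, and Myl9 was called without MGT replicate 1 (log2 0.17, adjusted p = 0.0115). MGT against control vector thus gave 5 members higher and 1 lower, where 17.9% of all genes tested were higher and 17.7% lower (35.6% together). The members' median was 0.18 on the log2 scale and that of all genes -0.01.

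**Figure D4:**
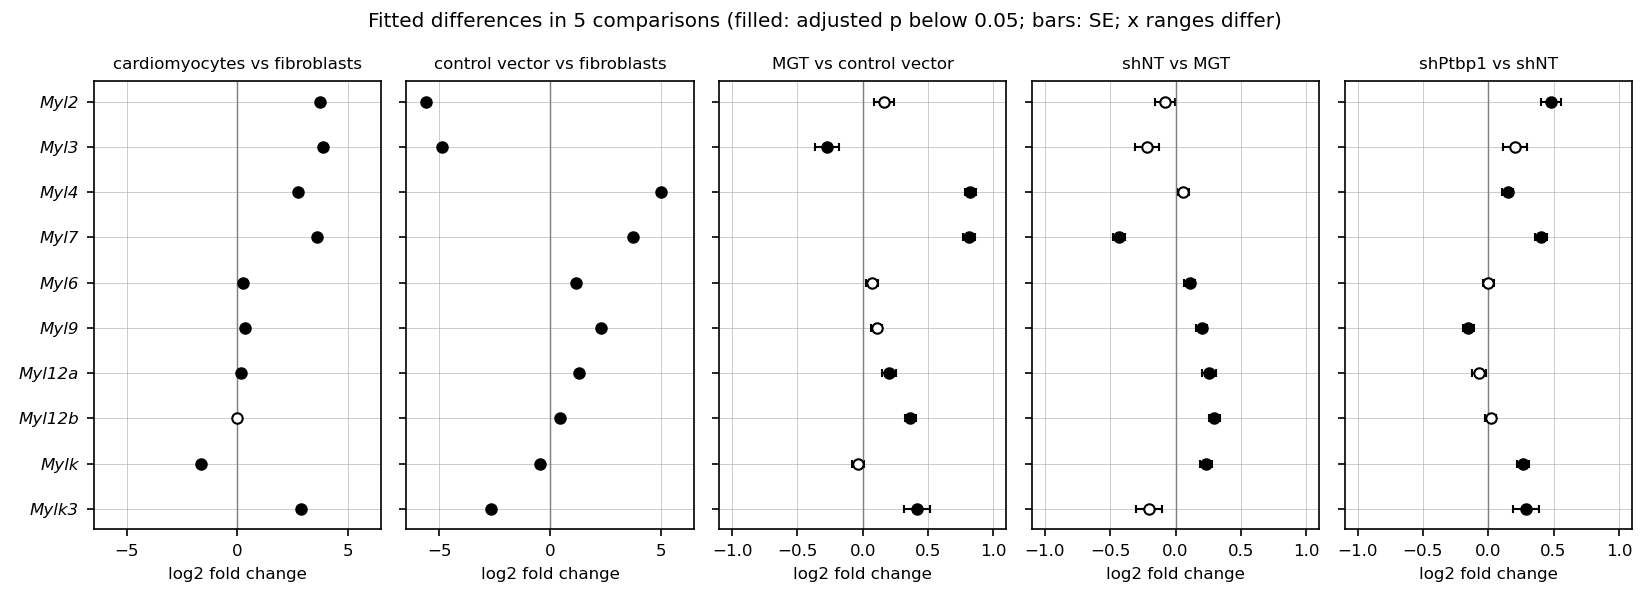
Fitted log2 fold change of each member in 5 comparisons, with the SE as a bar and filled points where the adjusted p is below 0.05; the left 2 panels have a wider axis than the right 3. Myl2 and Myl3 lie left of 0 and Myl4 and Myl7 right of 0 for control vector against fibroblasts, at -5.60, -4.87, 5.0 and 3.77.

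Adding the non-targeting hairpin lentivirus to MGT moved several members, so MGT + shNT and not MGT alone is the reference for the Ptbp1 hairpin. Myl7 was at 425 and 409.7 scaled CPM with MGT and at 298 and 320.5 with MGT + shNT, 1.35-fold lower (log2 -0.43, SE 0.0473, adjusted p = 4.2e-07). Myl4, the other atrial chain, was at 1592 and 1569.6 against 1594 and 1701 and was not called (log2 0.06, SE 0.0437, adjusted p = 0.301). Both shNT libraries were below both MGT libraries for Myl7, while for Myl4 the lower shNT library was level with them. Whether the changes of these partners differ was not tested.

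The smooth and non-muscle members were higher with shNT. Myl12b was at 374 and 409 with MGT and at 465 and 496 with MGT + shNT (log2 0.30, SE 0.0412, adjusted p = 8.93e-06). Myl12a was at 1198 and 1289 against 1441 and 1533 (log2 0.26, SE 0.0548, adjusted p = 0.000764). Mylk was at 106 and 107 against 127 and 124 (log2 0.23, SE 0.0455, adjusted p = 0.000359). In each of these genes both shNT libraries were above both MGT libraries. Myl9 was at 893 and 974 against 1054 and 1090.0 (log2 0.20, SE 0.0420, adjusted p = 0.000679). Myl6 was at 1021 and 1029.5 against 1081 and 1131 (log2 0.11, SE 0.0429, adjusted p = 0.0458), a call lost without MGT replicate 1 (adjusted p = 0.162), MGT replicate 2 (0.112) or shNT replicate 2 (0.295), and with the replicate number as a block (0.0538). It was also lost with edgeR on the recovered reads (adjusted p = 0.112), quantile normalization (0.077), upper-quartile scaling (0.0542) and no filter (0.111).

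Myl2, Myl3 and Mylk3 were not called between MGT and MGT + shNT (adjusted p = 0.442, 0.063 and 0.107). Myl3, at 1.75 and 1.41 against 1.46 and 1.13, was called lower without MGT replicate 2 (log2 -0.33, adjusted p = 0.0142) or without shNT replicate 1 (log2 -0.35, adjusted p = 0.00918), and with a pseudocount of 0.1 (log2 -0.27, adjusted p = 0.047). The count was 5 members higher and 1 lower, with 24.6% of all genes tested higher, 20.1% lower and 44.7% in either direction. That balance of all genes, 3432 higher and 2809 lower, was 2978 and 3188 with edgeR on the recovered reads and 3782 and 2539 with quantile normalization. The medians were 0.08 for the members and 0.02 for all genes on the log2 scale. Macrophage markers also differed, with a sum of 2890 to 2976 in MGT and of 1144 to 1199 in MGT + shNT. Of 7 smooth muscle markers 4 were higher and 0 lower with shNT. All 3 delivered factors were lower with shNT. Mef2c was at 719 and 759.9 against 475 and 469, Tbx5 at 1768 and 1844 against 1558 and 1539, and Gata4 at 682 and 699.9 against 644 and 625. Their part in these differences was not tested.

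With the Ptbp1 hairpin, Myl7 and Myl2 were higher than with shNT. Myl7 was at 298 and 320.5 scaled CPM in MGT + shNT and at 391 and 429 in MGT + shPtbp1, 1.32-fold higher (log2 0.41, SE 0.0473, adjusted p = 2.19e-06). Myl2 was at 5.13 and 4.63 and then at 6.83 and 7.16, 1.39-fold higher (log2 0.48, SE 0.0773, adjusted p = 8.7e-05). Both shPtbp1 libraries stood above both shNT libraries for each gene. Myl7 with MGT + shPtbp1 was not shown to differ from MGT alone (log2 0.03, adjusted p = 0.676); these comparisons share the shNT libraries, so the fall with shNT and the rise from it are not independent. Even at its highest cultured level Myl2 was far below the 241 and 249 of fresh fibroblasts (log2 5.03 lower, adjusted p = 4.08e-21).

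Mylk and Mylk3 were both higher with the Ptbp1 hairpin. Mylk was at 127 and 124 in MGT + shNT and at 158 and 144 in MGT + shPtbp1 (log2 0.27, SE 0.0455, adjusted p = 0.000154). Mylk3 was at 1.68 and 1.58 and then at 2.37 and 1.86 (log2 0.29, SE 0.100, adjusted p = 0.0316), but the call was lost without shNT replicate 1 (adjusted p = 0.0654), shNT replicate 2 (0.144) or shPtbp1 replicate 1 (0.330), and with a pseudocount of 2 (0.0547), no filter (0.0741) or only the 4 libraries compared (0.135). A row of gene totals does not show which Mylk or Mylk3 transcripts were spliced.

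The remaining calls with the Ptbp1 hairpin were small. Myl4 was at 1594 and 1701 in MGT + shNT and at 1748 and 1902 in MGT + shPtbp1 (log2 0.15, SE 0.0437, adjusted p = 0.0135), lost without shNT replicate 1 (adjusted p = 0.186) or shPtbp1 replicate 2 (0.185), with no filter (0.0601) and with only the 4 libraries compared (0.126). Myl9 was lower, from 1054 and 1090.0 to 939 and 988 (log2 -0.15, SE 0.0420, adjusted p = 0.00806), lost without shNT replicate 2 (0.0812) or shPtbp1 replicate 1 (0.0693). Myl9 with MGT + shPtbp1 was not shown to differ from MGT alone (log2 0.05, adjusted p = 0.393). Its rise with shNT and its fall from it share the shNT libraries, so they are not independent. Myl6 averaged 1106 in both hairpin groups, and Myl12b 481 and 487. Myl12a, at 1441 and 1533 against 1323 and 1509, overlapped and was not called (adjusted p = 0.331), though it was lower without shPtbp1 replicate 2 (log2 -0.17, adjusted p = 0.0240), and Myl3 (adjusted p = 0.0948) was called higher without shNT replicate 1 (log2 0.33, adjusted p = 0.0175). In all, 5 members were higher and 1 lower, beside 16.7% and 18.1% of all genes tested and 34.8% in either direction. The median was 0.18 for the members and -0.0011 for all genes. Of the 7 cardiomyocyte markers 4 were higher and 1 lower in this comparison. Fibroblast markers gave 4 higher and 0 lower of 7 (summed level 13649 to 14213 with shNT and 14347 to 15780 with shPtbp1), pericyte markers 4 higher and 1 lower of 5, smooth muscle markers 1 higher and 2 lower of 7, and macrophage markers 1 higher and 3 lower of 4. The part of these cell types was not tested.

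Ordered by mean level over the 6 groups, the members fell into different patterns. Neighbours in an order were compared in the same fit, where 34.8% to 87.6% of all genes tested were called over the 15 pairs of groups. Myl2 ran from cardiomyocytes (3282 ± 143 scaled CPM, SD, n = 2) through fibroblasts (245 ± 5.33) and MGT + shPtbp1 (6.99 ± 0.240) to MGT, MGT + shNT and control vector, where MGT + shPtbp1 was above MGT (adjusted p = 0.000345) and no neighbours among the last 3 were shown to differ. Myl3 ran from cardiomyocytes (1079 ± 18.9) through fibroblasts (72.7 ± 0.741) and control vector (2.01 ± 0.0288) to MGT, MGT + shPtbp1 and MGT + shNT, again with no difference shown between neighbours among the last 3. Mylk3 shared the first 2 places, at 83.9 ± 2.86 and 11.1 ± 0.227, and no neighbours among its 4 cultured groups were shown to differ.

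The atrial chains had fresh fibroblasts last. Myl4 ran from MGT + shPtbp1 (1825 ± 108) through MGT + shNT and MGT, which were not shown to differ, to control vector (893 ± 19.9), cardiomyocytes (189.6 ± 6.86) and fibroblasts (27.4 ± 0.351). Myl7 ran from MGT (418 ± 11.1) and MGT + shPtbp1 (409.9 ± 26.3), not shown to differ, through MGT + shNT (309 ± 15.8), control vector (238 ± 10.5) and cardiomyocytes (213 ± 9.46) to fibroblasts (17.0 ± 0.0924).

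Myl6, Myl9 and Myl12a also had the 4 cultured groups first, then cardiomyocytes, then fibroblasts. Their highest means were 1106 ± 62.1 in MGT + shPtbp1 for Myl6, and 1072 ± 25.7 and 1487 ± 65.2 in MGT + shNT for Myl9 and Myl12a. Myl12b was highest in MGT + shPtbp1 (487 ± 2.63) and MGT + shNT (481 ± 21.5), not shown to differ, and the 2 fresh groups at its lower end were not shown to differ either. Mylk had its own order: MGT + shPtbp1 (151 ± 9.75) and fresh fibroblasts (149 ± 4.73) came first and were not shown to differ, and fresh cardiomyocytes (47.7 ± 0.134) came last.

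The phosphatase that removes the kinases' mark was taken from a list of 8 genes, 7 of them tested. Between control cultures and fresh fibroblasts 4 were higher and 2 lower, where 86.9% of all genes were called, with a median log2 fold change of 0.28 for the list. Ppp1r14c, an inhibitor of the phosphatase, was at 9.08 and 8.80 scaled CPM in fresh fibroblasts, 71.3 and 71.6 in cardiomyocytes, 77.3 and 74.9 in control cultures and 109.7 and 107 with MGT (log2 0.51 for MGT against control, adjusted p = 6.98e-09). Its levels were thus lowest in fresh fibroblasts, as were those of Myl7. Ppp1r12c, a targeting subunit, went from 192 and 196 in fresh fibroblasts to 77.4 and 75.9 in control cultures (log2 -1.33, adjusted p = 2.01e-17). With the Ptbp1 hairpin 1 of the 7 was higher and 3 were lower, beside 34.8% of all genes called and with a list median of 0.03, among them Ppp1r14a, the smooth muscle inhibitor CPI-17 (log2 -0.25, adjusted p = 0.0058), and Ppp1cb, the catalytic subunit (log2 -0.18, adjusted p = 0.000216). MGT + shNT against MGT gave 4 higher and 0 lower, beside 44.7% of all genes called. Ppp1r14a was at 39.6 and 41.2 with MGT, 49.1 and 50.5 with shNT and 38.7 and 45.2 with shPtbp1. Ppp1cb was at 177 and 177, then 215 and 216, then 192 and 188. Both hairpin comparisons share the shNT libraries, so they are not independent. MGT against control vector gave 2 higher and 2 lower, beside 35.6% of all genes.

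Both cardiac heavy chains that carry the light chains were lower in culture, as the ventricular light chains were. Myh6, the alpha cardiac heavy chain, was at 673 and 679 scaled CPM in fresh fibroblasts, 5772 and 5458 in cardiomyocytes and 47.1 and 50.4 in control cultures (log2 -3.78 for control against fibroblasts, adjusted p = 1.48e-23). Myh7, the beta chain, was at 209 and 219.7, then 1846 and 1731, then 5.40 and 5.73 (log2 -5.15, adjusted p = 6.92e-23). Of the list of 7, 2 were higher and 5 lower in control cultures (median log2 fold change -2.32), where 43.5% of all genes were higher and 43.4% lower, and the non-muscle chain Myh9, a partner of Myl12a, was among the higher, from 855 and 855 to 2333 and 2485 (named after its values were seen). MGT against control vector gave 2 of the 7 higher and 2 lower, beside 17.9% and 17.7% of all genes tested. Myh6, at 65.7 and 64.5 with MGT (log2 0.41, adjusted p = 1.63e-07), and Myh7 were the higher ones. Myh9, at 2128.5 and 2262 with MGT, and Myh10 were the lower ones. Myh6 and Myh7 were higher again with the Ptbp1 hairpin (log2 0.40 and 0.52, adjusted p = 2.51e-07 and 1.47e-06), and Myh10, another non-muscle chain, was lower, from 708 and 701 to 527 and 482 (log2 -0.48, adjusted p = 7.3e-08). With MGT alone Myh10 was at 488 and 525. It was the 1 of the 7 called higher with MGT + shNT than with MGT, beside 24.6% of all genes. Both hairpin comparisons share the shNT libraries, so the rise of Myh10 with shNT and its fall from it are not independent.

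SRF and its cofactors were found under 4 names. Between control cultures and fresh fibroblasts 1 was lower, Mkl2 (log2 -0.49, adjusted p = 2.07e-09), and 3 were not called, where 86.9% of all genes were called, among them Srf at 90.9 and 94.0 against 89.2 and 97.4 (adjusted p = 0.802), named after its values were seen. All 4 were lower with the Ptbp1 hairpin than with shNT, where 18.1% of all genes tested were, with a list median of -0.19: Myocd, the myocardin gene, was at 15.7 and 13.9 with shNT and at 8.20 and 7.57 with shPtbp1 (log2 -0.87, adjusted p = 1.82e-07), and Srf went from 117 and 123 to 104 and 109.8 (log2 -0.17, adjusted p = 0.0072). MGT + shNT against MGT gave 2 higher and 0 lower, beside 24.6% of all genes higher: Srf (log2 0.25, adjusted p = 0.000149) and Mkl2 (log2 0.11, adjusted p = 0.0444). With MGT alone Srf was at 98.03 and 103.4, Mkl2 at 81.3 and 87.7, Mkl1 at 77.9 and 84.6, and Myocd at 12.9 and 12.7. With shPtbp1 Mkl2 was at 85.2 and 80.9 and Mkl1 at 71.1 and 75.04. The shNT libraries enter both hairpin comparisons, so these are not independent. MGT against control vector gave 2 higher, beside 17.9% of all genes: Myocd (log2 0.55, adjusted p = 4.21e-05) and Mkl2 (log2 0.36, adjusted p = 2.77e-06).

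Other light chains and kinases of the same families were at 12.1 scaled CPM or less in every library. Of a list of 7, 4 were tested. Myl1, the fast skeletal essential chain, was at 1.41 and 1.39 scaled CPM in fresh fibroblasts and at 11.6 and 12.1 in cardiomyocytes (log2 2.70, adjusted p = 4.53e-14), and was higher with MGT + shNT, at 3.15 and 3.14, than with MGT, at 1.27 and 1.25 (log2 1.05, adjusted p = 1.95e-07). Mylk2, the skeletal muscle kinase, was at 5.02 and 4.86 with shNT and at 9.63 and 8.51 with shPtbp1 (log2 0.81, adjusted p = 5.3e-05), while Myl1 was lower, at 1.80 and 2.07 (log2 -0.58, adjusted p = 0.000353). Mylk4 was at 0.494 and 0.688 with the control vector and at 1.33 and 1.56 with MGT (log2 0.84, adjusted p = 0.000124).

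The genes most like each member over the 12 libraries were found by Pearson's r of log2(scaled CPM + 0.5) among 9417 genes with a mean of at least 10 scaled CPM. Myl2 was closest to Myh7 (r = 0.999) and Ckm (0.998), the muscle creatine kinase gene. Myl3 was closest to Fsd2 (0.998), and Mylk3 to Unc45b (0.998), a myosin chaperone gene, and Tnni1 (0.998), a troponin I gene. Myl4 was closest to Sorbs2 (0.998) and Myl7 to Ppp1r14c (0.998), while Myl9 was closest to Oxct1 (0.999) and Rras2 (0.999). Mylk had the loosest best match, Tead3 (0.994). The 12 points fall into fresh and cultured sets and come in pairs of 1 group, so such values describe these libraries and carry no test.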

How the data were processed

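The file deposited by the authors holds CPM for 23423 genes, with 1 column for each of the 12 libraries. An Illumina kit for stranded mRNA was used, per the labels' protocols, and FastQC, TopHat2 2.1.0, HTSeq 0.6.1p1 and the mm10 build are named in the submitters' processing notes; gene annotation and strand setting: not given in the sources used here. All CPM values were whole multiples of 1 read (100% within 0.1 of a whole read), which gave the depth per library. Another 27 rows carry a number in place of a gene name.

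The members and gene lists were chosen with earlier results of these data known. Each library's CPM were scaled by its median ratio to the geometric mean of all libraries, and genes reaching 1 CPM in 2 or more libraries (13977) were log2-transformed after adding 0.5 and fitted over all 6 groups with limma-trend (limma 3.58.1, R 4.3.3), leaving 6 residual degrees of freedom. A call is an adjusted p (Benjamini-Hochberg) below 0.05. All 10 members are named in each comparison, with up to 4 called genes of largest change per pathway list, and the 3 genes most like each member were searched.

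The procedure was tried on simulated data in which the compared groups were equal except in a small planted set of genes. That set was far smaller than the number of genes called in the data. Recovery and false calls depend on it, so the values that follow need not hold for the comparisons above. On simulated data for MGT against control vector (13968 genes tested), 52% of changes of 0.25 on the log2 scale and 94% of changes of 0.5 were recovered, and 3.89% of calls were false. Of the 5 comparisons, MGT + shPtbp1 against MGT + shNT recovered the fewest changes of 0.25 (44%, 13961 genes), and the share of false calls was 4% there, 6.08% for cardiomyocytes and for control vector against fibroblasts (13790 and 13991 genes) and 7.03% for MGT + shNT against MGT (13971 genes). Alternatives were other scalings, pseudocounts, filters and priors, only the 4 libraries compared, a replicate block, each library left out, and edgeR 4.0.16 on the recovered reads, which called 2578 genes higher and 2578 lower for MGT against control vector. Promoter windows came from RefSeq (GRCm38.p6), where all 10 members matched, and gene models from GENCODE (GRCm38). The principal-transcript length was added after the data were seen. Protein sequences were not used here. Results for some genes and for the lists that need them are not reported here.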

Additional observations from a re-analysis of the deposited data

How the results depend on the processing

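Each member's log2 fold change in the 5 comparisons was recomputed under 15 alternatives each, 750 values in all. No value past the threshold changed sign, 710 kept their side of the threshold, 32 lost a call and 8 gained one. Control vector against fresh fibroblasts kept all 150. The 1 member lower with MGT than with control vector (Myl3) became 0 with a pseudocount of 2, with no filter and with only the 4 libraries compared, and ranged from 0 to 1 with a library left out. With the Ptbp1 hairpin, the 5 members higher became 3 with no filter or with only the 4 libraries compared, and the 1 lower (Myl9) ranged from 0 to 2 with a library left out. For MGT + shNT against MGT, the 1 lower (Myl7) became 2 with a pseudocount of 0.1 and ranged from 1 to 2 with a library left out. The causes were not tested. Whether the labels' replicate numbers pair libraries cannot be settled with 2 libraries per group. Correlations of same-numbered deviations ran from -0.027 to 0.162 in the 5 comparisons, the highest for MGT + shPtbp1 against MGT + shNT. The replicate block changed 1 call, Myl6 for MGT + shNT against MGT (adjusted p = 0.0538), leaving 4 members higher.

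The median of all genes for control vector against fresh fibroblasts, 0.0038 on the log2 scale, was -0.10 without further scaling and 0.11 with quantile normalization, small beside the members' changes there. Light chain shares moved with the measure of length, as given by their ranges above. Levels of Myl2, Myl3 and Mylk3 in culture are low, and their differences there are less certain than those of the abundant chains.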
